A study of Mus musculus with 23 samples.

Results

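The liver RNA of 3 ABpIF/F mice was compared with that of 6 ABpIF/+ mice. Both groups express oncogenic *Braf* V600E in the liver, and they differ in the second copy of *Icmt*. The paper reports weight loss and illness in ABpIF/+ but not in ABpIF/F mice, and clock genes also separate the groups, as described below. The differences are therefore those between 2 groups of mice and are not assigned to *Icmt* alone. These 9 mice were taken by genotype from a series of 15, and all 27179 genes of the count table were examined. Both groups carry *Alb*-Cre, which recombines floxed alleles in the hepatocyte lineage, 1 conditional *Braf* allele (BrafCA/+, which gives *Braf* V600E after recombination) and 2 floxed *Trp53* alleles. ABpIF/+ mice have 1 floxed *Icmt* allele (*Icmt* flx/+) and ABpIF/F mice have 2 (*Icmt* flx/flx). The remaining 6 mice, Ctrl, carry *Alb*-Cre, *Trp53* flx/flx and *Icmt* flx/+ with wild-type *Braf*, and their values are given only beside those of the *Braf* V600E livers. The sample labels write BRAF +/+ for both *Braf* V600E groups, whereas the series' design text gives BrafCA/+; the groups were taken from the Het and Hom entries of the genotype label. The RNA came from liver tissue without visible tumors of female mice, no ages are given in the labels, and each mouse is 1 column of counts. The paper reports liver tumors in every ABpIF/F mouse, with a burden that rose with age, and visible tumors in a minority of ABpIF/+ mice. The labels do not tie an age or a tumor burden to a mouse. A link of either to the differences between groups, or among the ABpIF/F mice, was not tested.

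ICMT, isoprenylcysteine carboxyl methyltransferase, is the enzyme that methylates the carboxyl-terminal cysteine of proteins that end in a CAAX motif. Farnesyl or geranylgeranyl groups are first attached to that cysteine, the last residues are then cut off by RCE1 or ZMPSTE24, and ICMT completes the tail. Small GTPases, RAS proteins among them, and lamins are among its substrates. BRAF lies downstream of RAS in the ERK kinase cascade, and the V600E form signals without needing RAS. *Alb*-Cre is active in hepatocytes and cells that descend from the same progenitors. Stellate, endothelial and immune cells of these livers therefore keep their *Icmt* alleles unexcised. The paper states, however, that the floxed *Icmt* allele is hypomorphic, with reduced expression before any excision by Cre. ABpIF/F mice carry more floxed copies than ABpIF/+ mice in these cells as well. Whether *Icmt* levels differed in these cells was not tested. Bulk RNA cannot tell fewer or more cells of a type from less or more RNA per cell, and this holds for each cell type gene below.

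The 9 libraries held 26185170 to 32262649 counts on genes, and no 2 columns were identical. Within each group the mice correlated at 0.96 to 0.98 (ABpIF/+) and 0.94 to 0.97 (ABpIF/F), as the Pearson correlation of log2 CPM over the 12316 genes that averaged 1 CPM or more in the 15 mice. CPM are counts per 1000000 counts of a library after TMM scaling. BG38, an ABpIF/F mouse, stood apart in its scaling factor (1.24, against 0.846 to 1 in the other 8 mice) and in the number of genes with a read (18039, against 16088 to 17297). The hepatocyte marker *Alb* was at 100260.5, 150791 and 181278 CPM in the ABpIF/F mice BG38, BG90 and BG183, in which order all ABpIF/F values are listed, and at 128868 to 186385 CPM (median 150149.8) in the ABpIF/+ mice. *Xist*, expressed from the inactive X chromosome, was at 689.8, 614 and 663 CPM and 268 to 696 CPM (median 469), and the Y chromosome genes *Ddx3y* and *Kdm5d* were at 0 in these 9 mice. No label says whether mice shared a litter or a day of collection, so p-values measure the spread between these mice.

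*Icmt* itself (Entrez 57295, GRCm38 chromosome 4, 152297214 to 152307126) was at 15.2, 16.6 and 15.7 CPM in the 3 ABpIF/F mice and at 27.8 to 37.4 CPM (median 32.6) in the 6 ABpIF/+ mice. The groups did not overlap, and the mean fell from 32.7 ± 3.49 (SD, n = 6) to 15.8 ± 0.711 (SD, n = 3) CPM (log2 fold change -1.04, SE 0.13, adjusted p = 7.17e-06). Reads on *Icmt* thus remained in every liver with 2 floxed alleles. Ctrl mice, with 1 floxed allele, had 27.8 to 34.7 CPM (median 30.7), close to the ABpIF/+ values.

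No other gene of protein prenylation was called. Calls required an adjusted p under 0.01 together with a log2 fold change of 1 or more in size. Over all 27179 genes 5.49% were called higher and 1.76% lower. In lists of 11 to 25 genes, 0 or 1 call is near those shares and does not set a list apart. *Icmt* alone among 11 prenylation enzymes met both. *Zmpste24*, the protease that cleaves prelamin A and CAAX tails, was at 57.4, 64.9 and 60.9 CPM against 51.5 to 63.4 CPM (median 57.5). *Rabggtb*, a subunit of the geranylgeranyl transferase that modifies RAB proteins, was at 31.7, 33.1 and 35.7 CPM against 54.1 to 70.4 CPM (median 62.4), below every ABpIF/+ mouse but short of the fold threshold (log2 fold change -0.90, SE 0.21, adjusted p = 0.00393). With a score of clock genes in the model, described below, *Rabggtb* was called (log2 fold change -1.62, adjusted p = 0.00192) and *Icmt* missed the fold threshold (-0.97, adjusted p = 0.00819). *Pcyox1*, which degrades prenylcysteines, was at 129, 158 and 161 CPM against 155 to 193 CPM (median 177). Of 25 genes for GTPase and lamin substrates, 1 was called. That gene was *Rac2*, the RAC GTPase of blood cells, at 18.8, 11.9 and 5.25 CPM against 1.33 to 3.85 CPM (median 2.92) (log2 fold change 2.12, SE 0.31, adjusted p = 0.000109). *Rhoa* (0.06), *Rac1* (-0.06) and *Cdc42* (0.21), which encode widely expressed small GTPases of the cytoskeleton, had log2 fold changes near 0.

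The mRNAs of the ERK cascade were not called either, which in a list this short is near the shares over all genes. Of 18 kinases and feedback genes of the pathway, 0 were called in either direction by edgeR (3 at an unadjusted p under 0.05, and 1 called by DESeq2), with a median log2 fold change of -0.09. *Braf* was at 21.9, 22 and 20.3 CPM against 24 to 29.2 CPM (median 25.7) (log2 fold change -0.29, SE 0.16, adjusted p = 0.249), a measure of total *Braf* mRNA that does not tell the V600E allele from the other. *Map2k2*, which encodes MEK2, came nearest the thresholds at 65.1, 90.5 and 80.8 CPM against 107 to 139.7 CPM (median 121) (log2 fold change -0.64, SE 0.16, adjusted p = 0.00581). Among 19 transcription factor and immediate early genes that ERK induces, 2 were higher and 2 lower. *Fos* was at 4.32, 4.43 and 4.8 CPM against 5.94 to 18.2 CPM (median 11.5) (log2 fold change -1.45, SE 0.30, adjusted p = 0.00137). *Ier2* was at 35.7, 33.3 and 35 CPM against 53 to 92.6 CPM (median 83.7) (log2 fold change -1.13, SE 0.19, adjusted p = 0.000175). Both were lower in all 3 ABpIF/F mice. *Ccnd1*, which encodes cyclin D1, was at 44.9, 40.4 and 28.2 CPM against 2.45 to 10.9 CPM (median 8.67) (log2 fold change 2.33, SE 0.30, adjusted p = 7.45e-05). *Etv4*, an ETS factor, was at 7.2, 4.5 and 1.7 CPM against 1.09 to 1.74 CPM (median 1.37) (log2 fold change 1.69, SE 0.40, adjusted p = 0.00462). The lowest ABpIF/F value of *Etv4* lay inside the ABpIF/+ range, and *Etv4* was not called without BG38 (adjusted p = 0.11) or without any one of BG30, BG55, BG88 and BG90 (0.011 to 0.0201). *Trp53* was at 9.78, 9.82 and 12.4 CPM against 12.3 to 16.8 CPM (median 13.3), and 0 of 15 genes of the *Trp53* list were called by edgeR (3 at an unadjusted p under 0.05, and 0 called by DESeq2), the MDM2 gene *Mdm2* having a log2 fold change of -0.29.

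Across all genes, 1491 were higher in ABpIF/F livers, 5.49% of the 27179 tested, and 478 were lower, 1.76%. The Ctrl mean was above the ABpIF/+ mean in 1301 of the higher genes (87.3%). It was below the ABpIF/+ mean in 415 of the lower ones (86.8%). The same ABpIF/+ values enter both comparisons, which favours this. The number of higher genes depended on BG38, since 788 were called without that mouse, whereas leaving out any other mouse gave 1229 to 1571. *Clock* genes also separated the 2 groups, as described below, and with a score of clock genes in the model 131 genes were higher (0.482% of those tested) and 187 lower (0.688%). In the median, fold changes changed little and their errors grew. Over the 1491 higher genes the median log2 fold change was 2.03 without and 1.92 with the score, and the median SE 0.36 and 0.66. Over the 478 lower genes the medians were -1.32 and -1.44, with median SEs of 0.23 and 0.34. Of the 1392 higher genes that lost their call 1236 were still 2-fold or more higher, and of the 335 lower ones 223 were still 2-fold or more lower. The 1491 and 478 genes were picked for their fold changes in these same mice. The score did not overlap between ABpIF/F and ABpIF/+, so its slope rested on differences within groups. The widest was that of the Ctrl mouse malpa387 (-1.09) from the other Ctrl mice (0.27 to 0.55). The model therefore cannot separate clock phase from genotype. Of the genes called with the score, 99 higher and 143 lower ones were also called without it. Of the 102 called genes that are named here, 20 were called with it, namely *A1bg*, *Asl*, *Ass1*, *Bnip3*, *Ciita*, *Col1a1*, *Col1a2*, *Col3a1*, *Cux2*, *Cyp27a1*, *Cyp2j5*, *Dhx58*, *Gbp10*, *Gbp9*, *Ifi27l2a*, *Lum*, *Per1*, *Plin5*, *Top2a* and *Zbp1*. The 5.49% and 1.76% over all genes are the background against which the lists below are read. Over the 12316 genes that averaged 1 CPM or more, as most list members did, 8.5% were higher and 3.72% lower. The median log2 fold change was 0 over all genes and -0.04 over those 12316 genes.

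**Figure D1:**
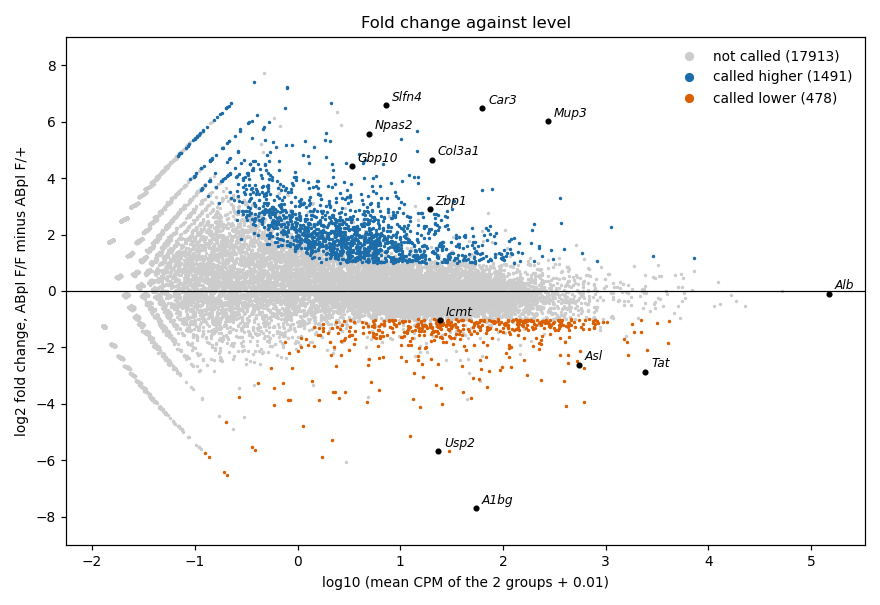
Log2 fold change of ABpIF/F against ABpIF/+ livers (vertical axis) against the mean level of both groups (horizontal axis, log10 of CPM plus 0.01), 1 point per gene with a read in these mice. Blue points are the 1491 genes called higher and orange points the 478 called lower, grey points were not called, and 1 gene lies outside the vertical axis, which extends 9 units to either side of 0.

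Among the genes that fell furthest, *A1bg*, a secreted plasma glycoprotein that is female-biased in mouse liver, was at 0.776, 0.429 and 0.294 CPM against 26.3 to 199 CPM (median 98.8) (log2 fold change -7.71, SE 0.85, adjusted p = 4.37e-05). *Hsd3b1*, a steroid dehydrogenase, was at 2.24, 0.286 and 0.783 CPM against 25.1 to 102 CPM (median 48.5) (log2 fold change -5.68, SE 0.98, adjusted p = 0.00141). *Serpina6*, the corticosteroid-binding globulin of plasma, was at 35.1, 38 and 151 CPM against 434 to 2467 CPM (median 985) (log2 fold change -3.95, SE 0.63, adjusted p = 0.00063). *Rasd2*, a small GTPase related to RAS, was at 0.942, 0.429 and 0.326 CPM against 5.04 to 14.3 CPM (median 8.44) (log2 fold change -3.95, SE 0.62, adjusted p = 0.000277). The cytochrome P450 *Cyp3a16* (-4.00) belonged to this group together with the clock-related *Usp2*, *Ciart* and *Noct*. Each of these genes was lower in all 3 ABpIF/F mice than in every ABpIF/+ mouse, which the rule that named them required.

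Among the genes that rose furthest, *Car3*, carbonic anhydrase 3, was at 15, 60.8 and 299.7 CPM in the ABpIF/F mice against 0.242 to 3.2 CPM (median 0.894) (log2 fold change 6.48, SE 0.87, adjusted p = 0.000238). Its Ctrl level was 258 to 604 CPM (median 429.6), a range that BG183 alone of the 3 mice reached. The major urinary protein *Mup3* was at 73.7, 519.9 and 1021 CPM against 2.23 to 24.8 CPM (median 4.23) (log2 fold change 6.02, SE 0.84, adjusted p = 0.000297), and it too was highest in BG183. *Raet1d* and *Raet1e*, stress ligands of the NKG2D receptor on NK and T cells, were at 7.84, 25.7 and 51.8 CPM against 0.307 to 1.82 CPM (median 0.93) and at 2.38, 6.36 and 14.2 CPM against 0.0341 to 0.464 CPM (median 0.26). Those 2 genes belong to a family of near-identical sequences, so reads may be divided between members. *Slfn4*, a myeloid Schlafen gene, ran the other way among the 3 mice, at 34.6, 7.9 and 0.424 CPM against 0.0377 to 0.409 CPM (median 0.0973) (log2 fold change 6.59, SE 0.96, adjusted p = 0.00035), so that BG183 was barely above the highest ABpIF/+ mouse. *Vcan*, the matrix proteoglycan versican, followed the order of *Slfn4*, at 20.3, 5.04 and 0.751 CPM against 0.273 to 0.442 CPM (median 0.335) (log2 fold change 4.66, SE 0.66, adjusted p = 0.000137). *Ly6d* was at 40.7, 42.9 and 2.45 CPM against 0.0377 to 1.2 CPM (median 0.523) (log2 fold change 5.67, SE 0.84, adjusted p = 0.000462), and *Col1a1*, *Col3a1* and *Npas2*, described below, made up the remaining 3 of the 10.

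**Figure D2:**
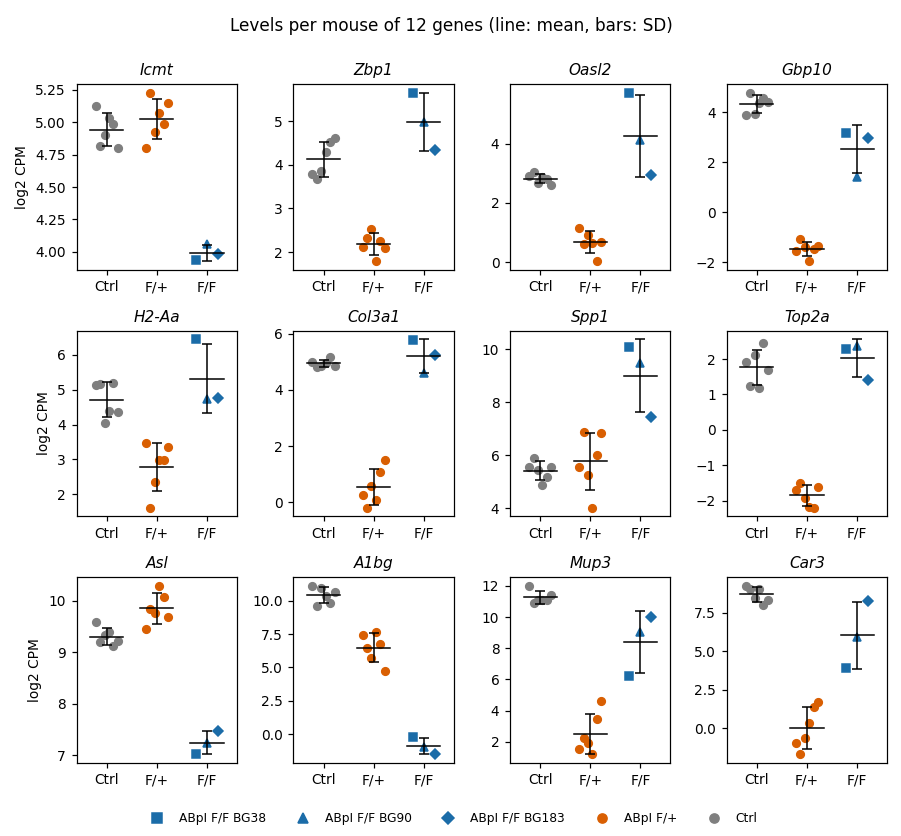
Log2 CPM (prior count 2) of 12 genes in each mouse, with Ctrl (grey), ABpIF/+ (orange, F/+) and ABpIF/F (blue, F/F) side by side, lines at the group mean and bars of 1 SD. The 3 ABpIF/F mice (square BG38, triangle BG90, diamond BG183) lie outside the range of the 6 ABpIF/+ mice for each gene shown, and their order differs between genes such as Oasl2 and Car3.

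Interferon-stimulated genes were higher in ABpIF/F livers, and among the 54 lists examined the GTPases and the antiviral effectors had the largest shares of members called. Of 30 antiviral effectors 27 rose and 0 fell, with a median log2 fold change of 2.35, and each of the 30 had a fold change above 0. All 16 measured interferon-gamma inducible GTPases rose, with a median of 2.42, as did 6 of 8 Schlafen genes. The summed level of the antiviral effectors was 1379.9, 890.3 and 596 CPM in BG38, BG90 and BG183, against 221 to 289 in the ABpIF/+ and 457 to 599.9 in the Ctrl mice. With the clock score in the model 7 of the 30 effectors and 6 of the 16 GTPases were called, at median log2 fold changes of 2.03 and 2.13.

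Antiviral effectors block virus entry, translation and replication. *Oasl2*, a 2′-5′ oligoadenylate synthetase-like protein, was at 52.4, 17.1 and 7.64 CPM against 0.958 to 2.15 CPM (median 1.52) (log2 fold change 4.03, SE 0.41, adjusted p = 1.15e-05). *Oas3*, which makes the oligoadenylates that activate RNase L, was at 16.6, 6.68 and 1.6 CPM against 0.0806 to 0.546 CPM (median 0.393) (log2 fold change 4.55, SE 0.54, adjusted p = 2.13e-05). Both genes were highest in BG38 and lowest in BG183, without overlap with the ABpIF/+ mice. *Isg15*, a ubiquitin-like modifier, was at 45.5, 42 and 19.4 CPM against 2.6 to 6.42 CPM (median 4.52) (log2 fold change 2.94, SE 0.29, adjusted p = 4.16e-06), with Ctrl mice at 7.24 to 16.5 CPM (median 9.59). *Ifi27l2a* was at 17.4, 9.75 and 3.59 CPM against 0.542 to 0.853 CPM (median 0.597) (log2 fold change 4.02, SE 0.35, adjusted p = 2.74e-07). *Eif2ak2*, the kinase PKR, was at 35.7, 29.8 and 22 CPM against 13.7 to 18.3 CPM (median 15.6) and missed the fold threshold (0.89 (adjusted p = 0.000139)). *Isg20* and *Ifi35* were the other members not called, *Isg20* being at 5.01, 3.82 and 2.81 CPM against 2.07 to 3.79 CPM (median 2.94).

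The GTPases attack the membranes around intracellular parasites and bacteria. *Gbp10* was at 9, 2.61 and 7.7 CPM against 0.189 to 0.403 CPM (median 0.302) (log2 fold change 4.42, SE 0.33, adjusted p = 1.25e-07), and all 3 ABpIF/F mice stayed below the Ctrl range of 14.9 to 27.5 CPM (median 20.9). *Gbp9* was at 42.8, 19.8 and 15.9 CPM against 1.96 to 5.42 CPM (median 4.23) (log2 fold change 2.76, SE 0.28, adjusted p = 3.71e-06). *Gbp2b* was at 5.68, 4.32 and 2.19 CPM against 0 to 0.955 CPM (median 0.118) (log2 fold change 3.69, SE 0.62, adjusted p = 0.000543). Guanylate-binding proteins, like OAS and IFIT genes, have close paralogs, so that the division of reads between single members is uncertain while the family sums are less so. The summed level of the GTPases was 1213, 942 and 826 CPM in BG38, BG90 and BG183, against 245 to 432 in the ABpIF/+ and 607 to 764 in the Ctrl mice.

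Upstream of these effectors, 10 of 24 nucleic acid sensors and interferon signalling genes rose and 0 fell. *Stat2*, a transcription factor of the type I interferon response, was at 102, 118 and 91.3 CPM against 36.5 to 70.2 CPM (median 60.1) and was not called for its size (0.85 (adjusted p = 0.00054)). *Zbp1*, a sensor of Z-form nucleic acid, was at 50.3, 31.7 and 20 CPM against 3.4 to 5.73 CPM (median 4.51) (log2 fold change 2.90, SE 0.25, adjusted p = 5.88e-07). *Dhx58*, a RIG-I-like receptor, was at 36.4, 29.5 and 17.9 CPM against 4.35 to 8.28 CPM (median 5.75) (log2 fold change 2.24, SE 0.20, adjusted p = 2.12e-07). *Irf7* was at 190.4, 114 and 55.1 CPM against 26.9 to 32.2 CPM (median 29.5) (log2 fold change 2.01, SE 0.24, adjusted p = 2.45e-05). *Zbp1*, *Dhx58*, *Ifi27l2a*, *Gbp9* and *Gbp10* were also called with the clock score in the model. The interferons themselves were barely detected: 9 of 11 ligand genes had no read in any of the 15 mice, and *Ifng* was at 0.222, 0 and 0.0326 CPM against 0 to 0.193 CPM (median 0.0184).

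Interferon-stimulated promoters often hold the response element GAAANNGAAA, to which IRF factors bind. It was searched on both strands, with overlapping matches kept, in the 250 bases before the RefSeq start (GRCm38.p6). Of 18458 genes of the table with such a window, 3.45% held it. Among the genes that were higher in ABpIF/F it was in 96 of 1113 windows (8.63%), and among the lower genes in 13 of 350 (3.71%). Each of the 10 GTPases with a window held it (*Gbp2*, *Gbp2b*, *Gbp3*, *Gbp5*, *Gbp7*, *Igtp*, *Irgm1*, *Irgm2*, *Tgtp1* and *Tgtp2*), as did 10 of 23 antiviral effectors and 2 of 19 sensors and signalling genes. In the 15 collagen genes with a window there was no match. The last 130 bases before the start are shown for 3 effectors and 2 GTPases that were called, to let the spacing of the element be seen, with its matches on either strand in capitals; *Ifit1* and *Gbp3* were chosen for their sequence after their values were seen.
Isg15: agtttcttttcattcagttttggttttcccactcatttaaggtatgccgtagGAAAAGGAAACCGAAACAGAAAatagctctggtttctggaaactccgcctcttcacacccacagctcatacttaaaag
Ifit1: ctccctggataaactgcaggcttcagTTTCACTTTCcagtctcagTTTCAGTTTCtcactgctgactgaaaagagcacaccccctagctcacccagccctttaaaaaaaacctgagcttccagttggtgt
Oas3: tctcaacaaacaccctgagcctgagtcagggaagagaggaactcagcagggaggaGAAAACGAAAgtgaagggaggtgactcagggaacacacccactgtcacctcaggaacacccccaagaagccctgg
Tgtp2: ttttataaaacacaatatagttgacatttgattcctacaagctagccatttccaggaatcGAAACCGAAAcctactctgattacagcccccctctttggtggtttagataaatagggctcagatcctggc
Gbp3: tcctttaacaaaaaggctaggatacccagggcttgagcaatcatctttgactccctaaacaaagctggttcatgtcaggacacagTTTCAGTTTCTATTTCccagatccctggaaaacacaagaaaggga
They lie at chr4:156200819-156200948, minus strand (*Isg15*), chr19:34640759-34640888, plus strand (*Ifit1*), chr5:120777660-120777789, minus strand (*Oas3*), chr11:49064213-49064342, minus strand (*Tgtp2*) and chr3:142559914-142560043, plus strand (*Gbp3*). *Isg15* held 3 overlapping matches beginning 78, 72 and 66 bases before the start, *Ifit1* held 2, beginning at 104 and 85, and *Gbp3* held 2 overlapping ones, beginning at 45 and 39. The single match began 75 bases before the start in *Oas3* and 70 in *Tgtp2*. The gene span of *Oas3* ends at 120777684 and that of *Gbp3* begins at 142560016. Part of the bases printed for these 2 genes thus lies inside the span, and their distances are from a start within it. *Ifit1*, an RNA-binding inhibitor of translation, was at 87.7, 41.3 and 22 CPM against 4.79 to 7.95 CPM (median 7.35) (log2 fold change 2.84, SE 0.33, adjusted p = 4.7e-05). *Tgtp2* was at 11.2, 1.82 and 1.83 CPM against 0.151 to 0.958 CPM (median 0.488) (log2 fold change 3.31, SE 0.57, adjusted p = 0.00057), and without BG38 it was not called (adjusted p = 0.0123). *Gbp3* was at 47.2, 21.4 and 16.3 CPM against 4.2 to 8.19 CPM (median 5.77) (log2 fold change 2.32, SE 0.26, adjusted p = 1.17e-05). A match describes the letters and is no measurement of binding.

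Genes of class II antigen presentation were higher, and those of class I in 2 of 15 cases. Of 15 class II and dendritic cell genes 13 rose, with a median log2 fold change of 2.64. They summed to 523, 178 and 175 CPM in BG38, BG90 and BG183. The sums were 34.2 to 73.1 CPM in ABpIF/+ and 112 to 234 CPM in Ctrl mice. *H2-Aa* and *H2-Ab1*, the chains of the I-A molecule, were at 87.5, 26.4 and 27.2 CPM against 2.98 to 10.9 CPM (median 7.79) (log2 fold change 2.66, SE 0.44, adjusted p = 0.000949) and at 87.2, 30.1 and 31.9 CPM against 5.22 to 9.96 CPM (median 8.89) (log2 fold change 2.64, SE 0.38, adjusted p = 0.00032). In both genes BG38 stood well above BG90 and BG183, and those were above all ABpIF/+ mice. *Ciita*, the transactivator of class II genes, was at 4.9, 2.25 and 1.79 CPM against 0.128 to 0.377 CPM (median 0.301) (log2 fold change 3.42, SE 0.39, adjusted p = 4.06e-06). Without BG38, 7 of the 15 were called, and with the clock score in the model 1, *Ciita*, at a median log2 fold change of 2.19 for the list. In class I presentation the 2 genes called were *Psmb9*, an immunoproteasome subunit at 25.5, 24.6 and 23.1 CPM against 8.11 to 12.7 CPM (median 10) (log2 fold change 1.27, SE 0.15, adjusted p = 6.17e-06), and the peptide transporter *Tap1* (log2 fold change 1.01, SE 0.14, adjusted p = 4.13e-05), which fell short of the fold threshold without any one of BG31, BG38, BG55, BG88 or BG175. The heavy chain *H2-K1* was at 1560.4, 1472 and 1238 CPM against 1164 to 1592 CPM (median 1303), and *B2m* at 1746, 1503 and 1497 CPM against 984 to 1738 CPM (median 1353).

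Markers of immune cells were higher than in ABpIF/+ to an extent that differed between the 3 ABpIF/F mice. Of 13 Kupffer cell markers 7 rose, and 10 of 16 markers of monocyte-derived and lipid-associated macrophages, 6 of 12 of neutrophils, 5 of 10 of NK cells and cytotoxic granules, 3 of 16 of T cells and 3 of 11 of B and plasma cells. The Kupffer cell markers summed to 846, 701 and 544 CPM in BG38, BG90 and BG183. Their sums were 345 to 539 CPM in ABpIF/+ and 544 to 763 CPM in Ctrl mice. For T cells the sums were 20.7, 13.3 and 10.4 CPM, against 4.91 to 11.2 and 17.4 to 26.8 CPM. For NK cells they were 17.2, 6.22 and 6.59 CPM, against 2.01 to 3.48 and 4.55 to 6.63 CPM. For B and plasma cells they were 62.1, 23.3 and 17.6 CPM, against 10.6 to 55.2 and 12.2 to 20.5 CPM. The macrophage markers summed to 1885, 1396 and 476 CPM in BG38, BG90 and BG183, against 238 to 360.2 in the ABpIF/+ and 136 to 172 in the Ctrl mice. *Spp1*, which ductular cells also make, supplied 1081, 724 and 175 CPM of the ABpIF/F sums. It supplied 16.1 to 118 CPM in the ABpIF/+ mice. Those of neutrophils summed to 649, 1109 and 214 CPM in BG38, BG90 and BG183, against 126 to 896 in the ABpIF/+ and 8.97 to 13.8 in the Ctrl mice, and *Lcn2*, which hepatocytes also make, accounted for most of that sum, at 545, 1069 and 209 CPM against 121 to 891 CPM (median 277) without a call. Only 1 of the 16 T cell markers, *Zap70*, reached a mean of 1 CPM over the 15 mice, so that these are small numbers of reads. *Zap70* was at 3.35, 7.72 and 4.76 CPM against 2.21 to 8.95 CPM (median 6.22) without a call. Among abundant members not called, *Igkc* (-0.54) and *Jchain* (-1.23) of B and plasma cells had log2 fold changes below 0, *Ighm* (1.22) above. Of Kupffer cells, *Slc40a1* (-0.37) and *Id3* (-0.16) lay below 0 and *Vsig4* (0.85) above.

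*Csf1r*, the receptor that macrophages need for survival, was at 111, 80.7 and 44.8 CPM against 15.8 to 28.7 CPM (median 25.9) (log2 fold change 1.72, SE 0.21, adjusted p = 2.14e-05). *Adgre1*, which encodes F4/80, was at 30.5, 19.3 and 11.4 CPM against 2.4 to 6.3 CPM (median 5.08) (log2 fold change 2.11, SE 0.28, adjusted p = 4.85e-05). *Cd5l*, a protein that Kupffer cells secrete, was at 210.4, 154 and 84.6 CPM against 32.3 to 72.7 CPM (median 54.2) (log2 fold change 1.46, SE 0.25, adjusted p = 0.000404). These 3 genes did not overlap with ABpIF/+, and BG183 was the lowest ABpIF/F mouse in each. *Ccr2*, the chemokine receptor of inflammatory monocytes, was at 21.3, 9.43 and 2.12 CPM against 0.242 to 1.36 CPM (median 0.54) (log2 fold change 4.07, SE 0.52, adjusted p = 4.57e-05). *Ly6c2*, another monocyte marker, was at 13.7, 3.47 and 0.489 CPM against 0.403 to 0.774 CPM (median 0.58), with BG183 inside the ABpIF/+ range, and it was not called without BG38 (adjusted p = 0.042). *S100a9*, a neutrophil alarmin, was at 36.1, 12.1 and 1.4 CPM against 1.19 to 3.02 CPM (median 1.34), again with BG183 inside that range. *Cd8a* was at 3.16, 0.5 and 0.522 CPM against 0.0368 to 0.224 CPM (median 0.0969) and *Cd4* at 1.58, 1.04 and 1.08 CPM against 0.113 to 0.524 CPM (median 0.264); neither was called without BG38 (adjusted p = 0.0364 and 0.0202). *Gzmb*, granzyme B, was at 4.24, 1.82 and 1.01 CPM against 0.205 to 0.626 CPM (median 0.305) (log2 fold change 2.70, SE 0.48, adjusted p = 0.000346). *Cd79a*, a subunit of the B cell receptor, was at 2.02, 0.929 and 1.6 CPM against 0 to 0.512 CPM (median 0.2) (log2 fold change 2.66, SE 0.52, adjusted p = 0.000894).

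Of 24 chemokine genes 8 rose and 0 fell. The interferon-inducible ligands of CXCR3, *Cxcl9* and *Cxcl10*, were at 32.5, 13.1 and 12.3 CPM against 0.387 to 4.74 CPM (median 2) (log2 fold change 3.09, SE 0.53, adjusted p = 0.00115) and at 8.81, 3.32 and 4.7 CPM against 0.363 to 2.03 CPM (median 1.05) (log2 fold change 2.45, SE 0.41, adjusted p = 0.000283). *Ccl5*, a T cell and NK cell chemokine, was at 5.46, 1.54 and 2.55 CPM against 0.282 to 1.23 CPM (median 0.82), and was not called without BG38 (adjusted p = 0.0685).

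Matrix genes made up the second large group that was higher in ABpIF/F livers. Of 20 collagen genes 14 rose, with a median log2 fold change of 2.27, and of 26 markers of hepatic stellate cells and fibroblasts 20 rose, with a median of 1.95. *Col1a1* and *Col1a2*, the chains of fibrillar collagen I, were at 31.7, 12.1 and 15.7 CPM against 0.155 to 0.991 CPM (median 0.366) (log2 fold change 5.37, SE 0.41, adjusted p = 3.8e-07) and at 22.6, 10.4 and 16.3 CPM against 0.604 to 2.49 CPM (median 1.47) (log2 fold change 3.51, SE 0.31, adjusted p = 9.39e-07). *Col3a1*, collagen III, was at 55.3, 24.3 and 37.7 CPM against 0.806 to 2.78 CPM (median 1.28) (log2 fold change 4.66, SE 0.29, adjusted p = 1.25e-07). In the Ctrl livers these genes stood at 7.37 to 14.4 CPM (median 8.67), 7.67 to 14.1 CPM (median 11.2) and 28.1 to 36.3 CPM (median 29.9), so that the low values were those of ABpIF/+. *Col18a1*, the most abundant member and one that hepatocytes express, was at 829, 1073 and 1261 CPM against 1142 to 1494 CPM (median 1240.4) and was not called, and with it the summed collagen level overlapped between the groups: 1238, 1309 and 1595 CPM in BG38, BG90 and BG183, against 1229 to 1574 in the ABpIF/+ and 999.8 to 1102 in the Ctrl mice.

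Among the stellate cell and fibroblast genes, *Lum*, a small proteoglycan of collagen fibrils, was at 9.11, 5.39 and 4.73 CPM against 0.34 to 1.47 CPM (median 0.936) (log2 fold change 2.85, SE 0.30, adjusted p = 2.41e-06). *Loxl1*, which crosslinks elastin, was at 5.1, 1.36 and 1.37 CPM against 0 to 0.387 CPM (median 0.213) (log2 fold change 3.69, SE 0.52, adjusted p = 4.46e-05). *Fn1*, plasma fibronectin from hepatocytes for the most part, was at 3292, 5339 and 3513 CPM against 2376 to 4517 CPM (median 2482) and *Ecm1* at 56.6, 44 and 101 CPM against 20.1 to 49.2 CPM (median 36.6), both without a call. Of 14 metalloproteinases and inhibitors 8 rose, among them *Mmp2* at 5.48, 1.46 and 1.99 CPM against 0.0737 to 0.927 CPM (median 0.383) (log2 fold change 2.85, SE 0.46, adjusted p = 0.00015). *Timp2* was at 39.6, 16.3 and 12.9 CPM against 4.52 to 9.82 CPM (median 6.57) (log2 fold change 1.73, SE 0.27, adjusted p = 0.000235). With the clock score in the model, 6 collagens (*Col1a1*, *Col1a2*, *Col3a1* and *Col6a3* among them), 3 stellate and fibroblast genes and 3 metalloproteinase genes were called, at median log2 fold changes of 2.33, 1.97 and 1.58 for the 3 lists. Of 20 endothelial markers 2 rose, *Eng* and *Lyve1*. *Eng* was at 74.9, 59.5 and 84.2 CPM against 20.9 to 46.8 CPM (median 35) (log2 fold change 1.08, SE 0.22, adjusted p = 0.0014). *Lyve1*, a receptor for hyaluronan, was at 34.7, 10.2 and 30.3 CPM against 2.66 to 6.78 CPM (median 5.5) (log2 fold change 2.33, SE 0.38, adjusted p = 0.00056). *Eng* was not called without BG38 (adjusted p = 0.0107), BG31, BG40 or BG183.

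**Figure D3:**
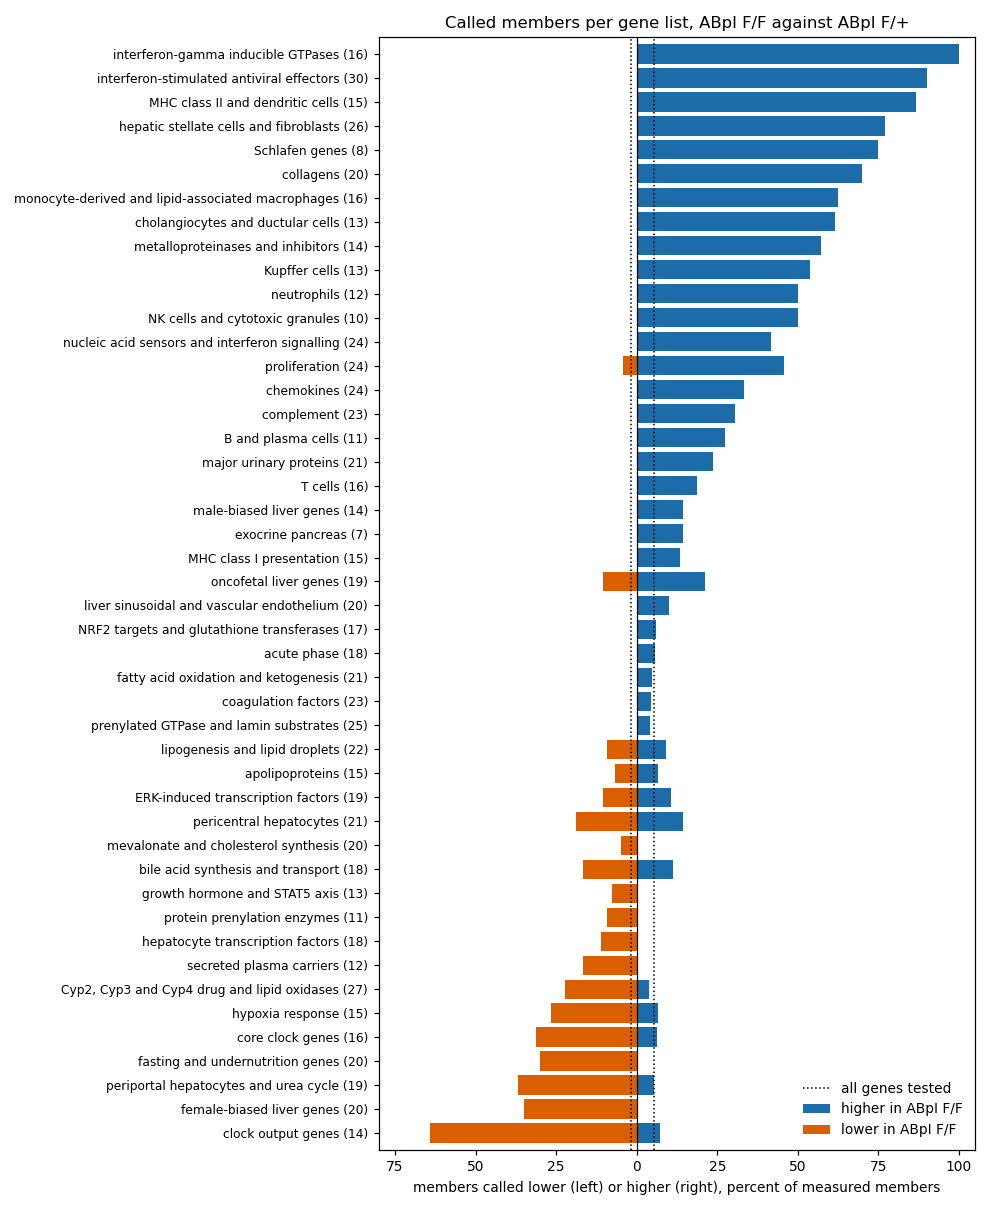
Share of the measured members of each gene list that were called higher (blue, to the right) or lower (orange, to the left) in ABpIF/F against ABpIF/+ livers, with the number of members in parentheses and dotted lines at the shares over all genes, 5.49% higher and 1.76% lower; lists with no call are left out. Interferon, class II, stellate cell and collagen lists lie at the top, and clock output, female-biased and periportal lists at the bottom. Over the 12316 genes that averaged 1 CPM or more, the shares were 8.5% higher and 3.72% lower.

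Ductular and proliferation genes were higher as well. Of 13 cholangiocyte and ductular markers 8 rose. *Spp1*, osteopontin, made by ductular cells and by macrophages, was at 1081, 724 and 175 CPM against 16.1 to 118 CPM (median 56.1) (log2 fold change 3.30, SE 0.58, adjusted p = 0.00138) and was not called without BG38 (adjusted p = 0.012). The biliary keratin gene *Krt19* was at 4.57, 2.39 and 2.12 CPM against 0.171 to 0.89 CPM (median 0.643) (log2 fold change 2.31, SE 0.38, adjusted p = 0.00017), the surface protein gene *Epcam* at 11, 5.11 and 3 CPM against 0.716 to 2.78 CPM (median 1.54), and *Tspan8* at 61.6, 32.5 and 8.68 CPM against 1.51 to 4.6 CPM (median 3.73) (log2 fold change 3.31, SE 0.50, adjusted p = 0.000445). BG38 was the highest mouse in each of these 4 genes, and *Epcam* was not called without it (adjusted p = 0.0261). *Alb*-Cre can also recombine in cells of this lineage.

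Of 24 proliferation genes 11 rose and 1, the ribonucleotide reductase gene *Rrm2*, fell. *Top2a*, topoisomerase II of dividing cells, was at 4.85, 5.11 and 2.58 CPM against 0.147 to 0.282 CPM (median 0.216) (log2 fold change 4.27, SE 0.34, adjusted p = 1.25e-07). *Mki67* was at 10.7, 6.22 and 4.21 CPM against 0.528 to 2.24 CPM (median 1.45) (log2 fold change 2.32, SE 0.34, adjusted p = 7.77e-05). In Ctrl they were at 2.21 to 5.38 CPM (median 3.41) and 3.61 to 7.99 CPM (median 4.71). *Pcna*, a DNA polymerase clamp, was at 21.8, 22.6 and 20.6 CPM against 16.6 to 29.7 CPM (median 27.7). Without BG90, 7 proliferation genes were called, and with the clock score in the model 1, *Top2a*, while the median log2 fold change of the list was 1.14 without and 1.15 with the score.

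Genes of the fetal liver and of liver tumors moved in both directions, 4 of 19 higher and 2 lower. Their summed level was 1006, 642 and 593 CPM in BG38, BG90 and BG183, against 1281 to 1899.8 in the ABpIF/+ mice. Of the abundant members not called, *Gpc3* was at 242, 117 and 32.8 CPM against 266 to 444 CPM (median 407). *Tff3* was at 106, 132 and 308 CPM against 477 to 961 CPM (median 596), and *H19* overlapped between the groups. *Bex1* was at 23.8, 7.54 and 4.89 CPM against 70.4 to 160.5 CPM (median 93.7) (log2 fold change -3.11, SE 0.48, adjusted p = 0.000537), and at 0 to 0.187 CPM (median 0.0903) in Ctrl. *Cd24a*, a progenitor surface marker, was at 36.1, 12.8 and 5.61 CPM against 0.302 to 3.49 CPM (median 1.94) (log2 fold change 3.16, SE 0.53, adjusted p = 0.000738). *Dlk1* was at 1.8, 2.82 and 1.76 CPM against 0.0806 to 0.658 CPM (median 0.198) (log2 fold change 2.97, SE 0.52, adjusted p = 0.000299). *Afp*, alpha-fetoprotein, was at 130, 57.8 and 20.9 CPM against 7.39 to 42.6 CPM (median 28), with 2 ABpIF/F mice above and 1 inside the ABpIF/+ range (1.33 (adjusted p = 0.0846)).

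Genes of differentiated hepatocytes fell in part, while most genes for plasma proteins were not called. Of 19 periportal and urea cycle genes 7 fell and 1 rose, with a median log2 fold change of -0.69. *Asl*, argininosuccinate lyase, was at 129.7, 149.9 and 177 CPM against 695 to 1253 CPM (median 891) (log2 fold change -2.62, SE 0.21, adjusted p = 1.25e-07). *Ass1*, argininosuccinate synthase, the preceding enzyme of the urea cycle, was at 409, 862 and 877 CPM against 1716 to 3477 CPM (median 2343) (log2 fold change -1.80, SE 0.27, adjusted p = 8.4e-05). *Cps1*, which makes carbamoyl phosphate for the same cycle, was at 1441, 2387 and 2362 CPM against 1765 to 3683 CPM (median 2812) and was not called (-0.42 (adjusted p = 0.352)). *Pck1*, the gluconeogenic enzyme PEPCK, was at 581, 1546 and 734 CPM against 2782 to 6717 CPM (median 3488) (log2 fold change -2.10, SE 0.36, adjusted p = 0.000388). *Asl* and *Ass1* were also called with the clock score in the model.

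The 21 pericentral genes were divided, with 4 lower and 3 higher. *Cyp2a5* was at 169, 66.4 and 147 CPM against 627 to 1050.4 CPM (median 698) (log2 fold change -2.54, SE 0.37, adjusted p = 0.000111). *Cyp27a1*, which starts the acidic route of bile acid synthesis, was at 91.9, 92.1 and 118 CPM against 259 to 446 CPM (median 309.9) (log2 fold change -1.68, SE 0.18, adjusted p = 2.63e-06). *Glul*, glutamine synthetase, was at 56.3, 283 and 222 CPM against 185 to 307 CPM (median 241) without a call. *Cyp2e1* was at 689, 1649 and 1881 CPM against 1881 to 4435 CPM (median 2341) (-0.96 (adjusted p = 0.0299)). The Ctrl level of *Cyp2e1* was 5629.9 to 8704 CPM (median 6816), above all 9 *Braf* V600E livers. Of 27 drug and lipid oxidases of the Cyp2, Cyp3 and Cyp4 families 6 fell and 1 rose, *Cyp2j5*, an epoxygenase, at 75.9, 127 and 136 CPM against 13.9 to 32.9 CPM (median 23.5) (log2 fold change 2.22, SE 0.20, adjusted p = 3.2e-07).

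In bile acid metabolism 3 of 18 genes fell and 2 rose. *Abcb11*, the canalicular bile salt export pump, was at 209, 311 and 487 CPM against 81.1 to 159 CPM (median 110) (log2 fold change 1.59, SE 0.22, adjusted p = 3.49e-05). *Hsd3b7*, a synthesis enzyme, was at 157, 321 and 391 CPM against 65.3 to 110.5 CPM (median 83.2) (log2 fold change 1.72, SE 0.25, adjusted p = 9.51e-05). *Slc10a1*, the importer of bile salts from blood, was at 153, 268 and 505 CPM against 565 to 708 CPM (median 604), just past the fold threshold (log2 fold change -1.01, SE 0.26, adjusted p = 0.00741), and was not called under DESeq2 or RLE scaling, in the 9 mice alone or without any one mouse other than BG183. Of 18 hepatocyte transcription factors 2 fell, *Ppara* and *Nr1i3*. *Ppara* was at 102, 75 and 143 CPM against 196 to 249 CPM (median 223) (log2 fold change -1.06, SE 0.27, adjusted p = 0.00811). The xenobiotic receptor *Nr1i3* was at 31.7, 48.7 and 46.1 CPM against 62.1 to 118 CPM (median 94) (log2 fold change -1.06, SE 0.24, adjusted p = 0.00327). *Ppara* was called without BG183 but not without any one of the other 8 mice, and *Nr1i3* was not called without BG38 or BG40. The log2 fold change of *Ppara* was 0.0081 with the clock score in the model. *Hnf4a*, a regulator of hepatocyte identity, was at 477, 623 and 439 CPM against 694 to 1108 CPM (median 818) and short of the fold threshold (-0.72 (adjusted p = 0.00526)).

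Of the plasma proteins, *Apoa1*, the main protein of HDL, was at 14643, 20380.1 and 20211 CPM against 21736 to 34754 CPM (median 26289.9) (log2 fold change -0.54, SE 0.23, adjusted p = 0.123), below every ABpIF/+ mouse in all 3 but without a call. Ctrl mice had 4019 to 7800.2 CPM (median 5879.9). *Fgb*, the fibrinogen beta chain, was at 4478, 8525 and 3885 CPM against 2908 to 6149 CPM (median 3388) (log2 fold change 0.55, SE 0.24, adjusted p = 0.132). *Hp*, haptoglobin, was at 4399.9, 9271 and 3111 CPM against 3814 to 9104 CPM (median 5312); 1 of 23 coagulation and 1 of 18 acute phase genes were called. BG90 had the highest levels of *Fgb* and *Hp* among these 3 mice. In the complement list 7 of 23 genes rose. *C9* and *C8a*, components of the membrane attack complex, were at 112, 244 and 78 CPM against 5.55 to 18.5 CPM (median 12.6) (log2 fold change 3.60, SE 0.36, adjusted p = 1.54e-05) and at 352, 976 and 516 CPM against 63.6 to 172 CPM (median 113) (log2 fold change 2.42, SE 0.36, adjusted p = 0.000255). *Apoa5*, which governs plasma triglyceride, and *Rbp4* were lower. *Apoa5* was at 477, 559 and 1112 CPM against 1668 to 3023 CPM (median 2229) (log2 fold change -1.70, SE 0.28, adjusted p = 0.000171). The retinol carrier *Rbp4* was at 2170.3, 2654 and 3141 CPM against 4813 to 6888 CPM (median 5354) (log2 fold change -1.07, SE 0.19, adjusted p = 0.000334).

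Sex-biased liver genes, which growth hormone pulses control, changed although all mice were female. Of 20 female-biased genes 7 fell and 0 rose, with a median log2 fold change of -1.44. Besides *A1bg* these included *Cux2*, a female-specific repressor of male genes, at 14, 5.79 and 12.6 CPM against 74.7 to 116 CPM (median 86.2) (log2 fold change -3.09, SE 0.36, adjusted p = 3.63e-05), and the sulfotransferase *Sult3a1*, whose 3 ABpIF/F values lay below 35.5 to 146 CPM (median 70.7) (log2 fold change -3.59, SE 0.73, adjusted p = 0.00377). Of 21 major urinary protein genes 5 rose, and of 14 male-biased genes 2, *Mup20* being in both lists. *Mup20*, darcin, was at 98.3, 93.7 and 155 CPM against 2.57 to 21.4 CPM (median 8.04) (log2 fold change 3.57, SE 0.45, adjusted p = 0.000139). Mup genes are nearly identical in sequence, so single members are uncertain, but their sum was 177, 619 and 1215 CPM in BG38, BG90 and BG183, against 7.54 to 48.6 in the ABpIF/+ and 2061 to 4590.1 in the Ctrl mice. BG183 thus came nearest to the Ctrl livers and BG38 stayed furthest from them.

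In lipid metabolism 4.76% of the oxidation list were higher, 9.09% of the lipogenesis list higher and 9.09% lower, and 5% of the cholesterol list lower. Over all genes 5.49% were higher and 1.76% lower. Over those that averaged 1 CPM or more the shares were 8.5% and 3.72%. With 1 or 2 genes in a direction, these counts do not set the lists apart. Fatty acid oxidation and ketogenesis had 1 of 21 called, the ketogenic enzyme gene *Bdh1* at 171, 221 and 265 CPM against 36 to 97.7 CPM (median 69.9) (log2 fold change 1.71, SE 0.22, adjusted p = 2.44e-05). Lipogenesis and lipid droplet genes had 2 higher and 2 lower of 22. *Plin2*, a coat protein of lipid droplets, was at 244, 177 and 234 CPM against 43.8 to 142 CPM (median 87.9) (log2 fold change 1.33, SE 0.28, adjusted p = 0.00258). *Plin5*, another, was at 9.83, 8.4 and 11.7 CPM against 23 to 54.1 CPM (median 27.7) (log2 fold change -1.73, SE 0.28, adjusted p = 0.000295). The changes of the 2 coat protein genes were in opposite directions. *Scd1*, stearoyl-CoA desaturase, was at 1711, 2543 and 2737 CPM against 1789 to 3321 CPM (median 2122). Of 20 genes of mevalonate and cholesterol synthesis, which supplies the prenyl groups, 1 fell. Of 17 NRF2 targets and glutathione transferases 1 rose, *Gclc* at 215, 195 and 181 CPM against 90.2 to 107 CPM (median 93) (log2 fold change 1.06, SE 0.15, adjusted p = 4.65e-05), while *Gstm1* was at 2692, 961 and 985 CPM against 1246 to 1977 CPM (median 1591).

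Genes that respond to fasting and glucocorticoids fell in 6 of 20 cases and rose in none. *Tat*, tyrosine aminotransferase, was at 275, 796 and 695 CPM against 2862 to 7793 CPM (median 3483) (log2 fold change -2.86, SE 0.39, adjusted p = 5.09e-05). *Fkbp5*, a glucocorticoid target, was at 81.6, 78.2 and 81.2 CPM against 251 to 444 CPM (median 286) (log2 fold change -1.95, SE 0.31, adjusted p = 0.00028). The coactivator *Ppargc1a* was at 13.8, 11.9 and 16.3 CPM against 26.6 to 55.1 CPM (median 32.4) (log2 fold change -1.36, SE 0.25, adjusted p = 0.000672). *Igfbp1*, which insulin represses, was at 1350, 604 and 404 CPM against 1495 to 3691 CPM (median 2153) without a call (-1.60 (adjusted p = 0.0749)). In the hypoxia list 4 of 15 fell and 1 rose. *Bnip3*, a mitophagy receptor, was at 143, 91.7 and 136 CPM against 532 to 746 CPM (median 573) (log2 fold change -2.28, SE 0.19, adjusted p = 1.37e-07). *Epas1*, which encodes HIF-2alpha, was at 253, 322 and 232 CPM against 523 to 681 CPM (median 584) (log2 fold change -1.13, SE 0.18, adjusted p = 0.000125).

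Of 30 genes of the circadian clock and its output, 14 were lower and 2 higher in ABpIF/F livers. The clock is a feedback loop in which CLOCK or NPAS2 with BMAL1 drives Per, Cry and Rev-erb genes, whose products repress it, and D-box factors such as *Dbp* pass the rhythm on to metabolic genes. Of 14 clock output genes 9 fell and 1 rose, with a median log2 fold change of -2.42, and of 16 core clock genes 5 fell and 1 rose. With the clock score, which these genes make up, the medians of the output and core lists were -0.53 and -0.03, against -2.42 and -1.12 without it. *Npas2* was at 8.12, 14 and 6.92 CPM against 0.0754 to 0.31 CPM (median 0.213) (log2 fold change 5.56, SE 1.00, adjusted p = 0.00157). *Per1* was at 28.8, 9.68 and 15 CPM against 107 to 160 CPM (median 126) (log2 fold change -2.83, SE 0.34, adjusted p = 4.03e-05). *Ciart*, a repressor of the loop, was at 0.249, 0.679 and 1.17 CPM against 17.7 to 37 CPM (median 23.1) (log2 fold change -5.13, SE 0.97, adjusted p = 0.00252). *Ciart* was not called without BG38 (adjusted p = 0.0199) or BG90 (adjusted p = 0.015). *Usp2*, a deubiquitinase with a strong daily rhythm, was at 1.25, 0.965 and 0.424 CPM against 33.3 to 71.8 CPM (median 43) (log2 fold change -5.69, SE 0.91, adjusted p = 0.000822). *Noct*, a phosphatase of NADPH, was at 1.86, 1.64 and 1.6 CPM against 5.38 to 46.9 CPM (median 36.5) (log2 fold change -4.12, SE 0.75, adjusted p = 0.00191). *Por*, the reductase that serves all microsomal P450 enzymes, was at 147, 156 and 185 CPM against 818 to 1626 CPM (median 988) (log2 fold change -2.72, SE 0.30, adjusted p = 4.18e-06). *Lpin1* (-3.20) and *Bhlhe40* (-1.54) were lower too. *Per3* at 6.81, 1.46 and 9.59 CPM and *Dbp* at 9.67, 0.893 and 32.9 CPM varied widely among the ABpIF/F mice, lay below the ABpIF/+ ranges of 56.6 to 118 CPM (median 83.3) and 58.2 to 114 CPM (median 69.9), and were not called (-3.82 (adjusted p = 0.0101) and -2.41 (adjusted p = 0.128)).

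The E-box CACGTG, which CLOCK or NPAS2 with BMAL1 binds, was in 7.63% of the 18458 gene windows, in 52 of 350 windows of lower genes (14.9%) and in 77 of 1113 of higher ones (6.92%). Of the core clock genes 4 of 13 held it (*Bhlhe41*, *Ciart*, *Cry1* and *Per1*). *Ciart* is shown because it held 3 matches in the last 130 bases (chr3:95882229-95882358, minus strand), beginning 116, 58 and 44 bases before the start. Its gene span ends at 95882257, so part of these bases lies inside the span and the distances are from a start within it. The sequence reads as follows with the E-boxes in capitals.
Ciart: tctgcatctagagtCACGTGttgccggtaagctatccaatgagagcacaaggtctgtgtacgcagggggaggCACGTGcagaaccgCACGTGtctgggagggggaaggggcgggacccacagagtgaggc

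A clock score, the mean z value of the 30 core and output genes over the 15 mice with the genes that peak in antiphase reversed, was -0.98, -1.46 and -0.75 in the ABpIF/F mice and 0.22 to 0.57 in the ABpIF/+ mice. Of the Ctrl mice 5 had 0.27 to 0.55 and 1, malpa387, had -1.09. No time of collection is in the labels, and since the score does not overlap between ABpIF/F and ABpIF/+, clock phase and genotype cannot be told apart in these 9 mice. The Ctrl mouse malpa387 shows levels at a low score without *Braf* V600E: its clock output genes lay at -1.78 log2 units relative to the ABpIF/+ mean, against -0.16 to 0.29 in the other Ctrl mice. Its antiviral effectors lay above the 0.74 to 1.01 of the other Ctrl mice and below the 1.40 to 2.94 of ABpIF/F. Its collagens lay at 1.38, inside the range of the others, 1.25 to 1.68. In 26 of the 54 lists this mouse lay outside the range of the other 5 Ctrl mice, 20 times on the side of the ABpIF/F mean and 6 times on the other. Both clock lists, which form the score that singled out this mouse, are among the 26. Most lists inside that range lay on the ABpIF/F side too. Over all genes, malpa387 correlated at 0.9787 with BG3, whose score was 0.2709. It correlated at 0.9648 to 0.9661 with malpa454, malpa458, malpa459 and malpa462. Those mice correlated at 0.981 to 0.9898 with one another, so the Ctrl mice were also divided in a way that did not follow the score. The mouse malpa387 is 1 mouse, and a link of its levels to its score was not tested. Its female-biased genes lay at 0.90, against 1.24 to 1.97 in the others, its male-biased genes at 0.64 against 1.51 to 2.06, its major urinary protein genes at 4.77 against 5.51 to 6.28 and its cholesterol synthesis genes at -0.16 against 0.51 to 0.86.

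**Figure D4:**
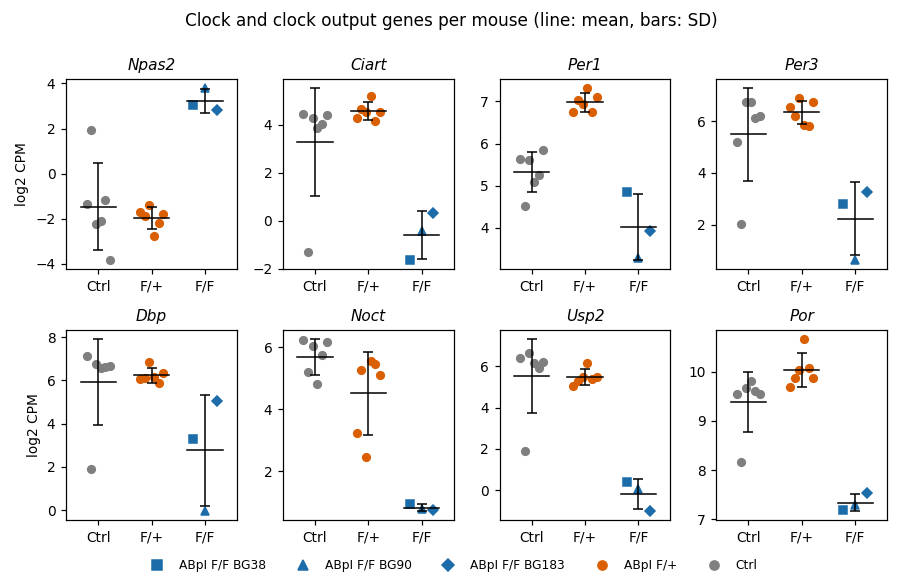
Log2 CPM (prior count 2) of 8 clock and clock output genes in each mouse, with Ctrl (grey), ABpIF/+ (orange, F/+) and ABpIF/F (blue, F/F), lines at the group mean and bars of 1 SD. The 3 ABpIF/F mice lie below the 6 ABpIF/+ mice for 7 of the 8 genes and above them for Npas2, and 1 Ctrl mouse lies near the ABpIF/F mice for several genes.

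The 3 ABpIF/F mice differed from one another in a way that recurred across lists. Among the 1491 higher genes BG38 had the highest level in 1133 (76.0%), BG90 in 210 and BG183 in 148, and BG183 the lowest in 988. Among the 478 lower genes the furthest value was divided more evenly, 179 in BG38, 142 in BG90 and 157 in BG183. Of the higher genes 1275, and of the lower ones 469, had no overlap between the 3 ABpIF/F and the 6 ABpIF/+ mice. Calls were made from these same mice, which favours such separation, so these counts do not measure agreement between mice. Of the 102 called genes named here, 25 were not called without BG38 and 7 without BG90. Beside those given above, the calls lost without BG38 were *Fos*, *Noct*, *Cyp3a16*, *Cxcl9*, *Gzmb*, *S100a9*, *Rbp4*, *Sult3a1*, *Bhlhe40*, *Plin2* and *Gclc*. *Noct*, *Cyp3a16* and *Bhlhe40* were also lost without BG90, and *Noct*, *Sult3a1* and *Plin2* without BG183. BG38 also had the lowest hepatocyte transcription factor sum, 1551 CPM, against 2103 and 2029.8 in the other 2.

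**Figure D5:**
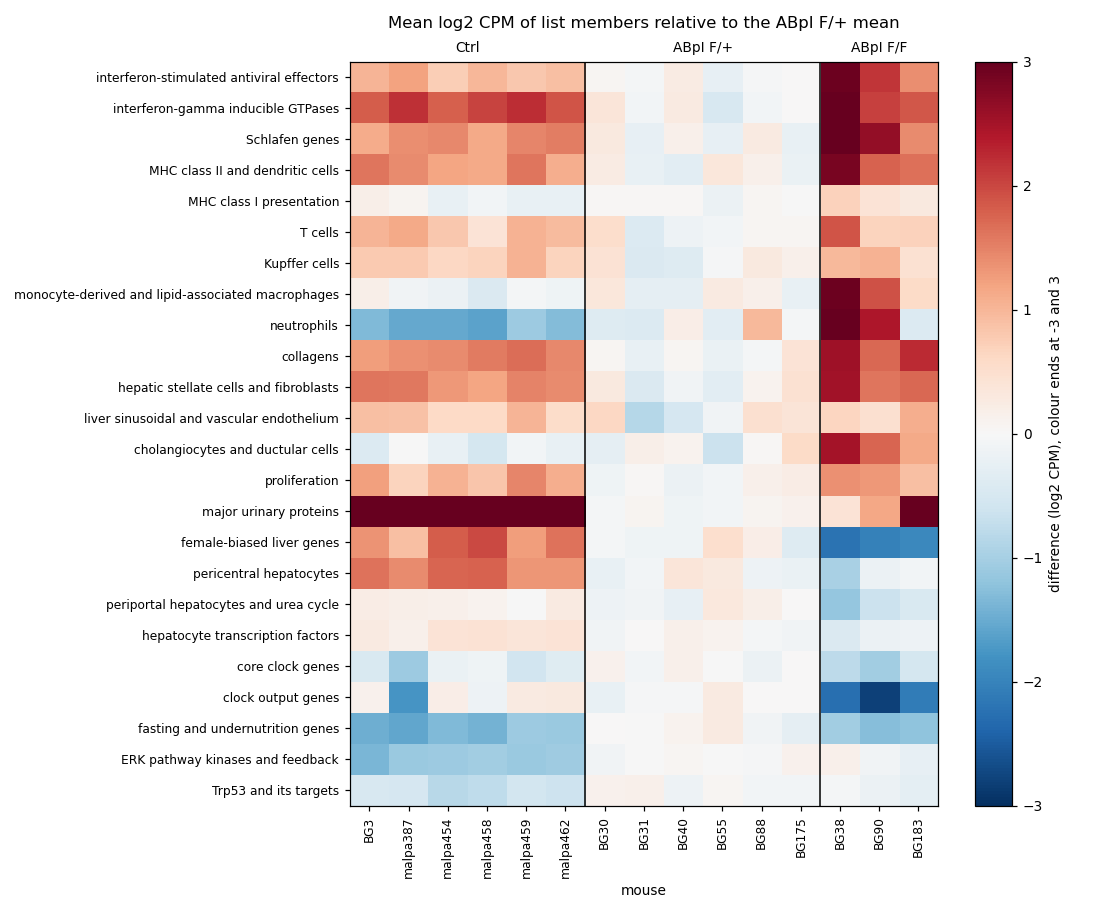
Mean log2 CPM of the members of 24 gene lists in each of the 15 mice, relative to the mean of the 6 ABpIF/+ mice, with red above and blue below and colours that end at -3 and 3. BG38 has the deepest red in the interferon, class II and monocyte-derived macrophage rows, the major urinary protein row is deepest in Ctrl and BG183, and the clock output row is blue in the 3 ABpIF/F mice and in the Ctrl mouse malpa387.

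RNA of tissues other than liver was at low levels. Erythrocyte genes summed to 115, 80.4 and 63.9 CPM in BG38, BG90 and BG183, against 73.6 to 239 in the ABpIF/+ and 32.7 to 151 in the Ctrl mice, platelet genes to 17.7, 14.8 and 5.38 CPM in BG38, BG90 and BG183, against 6.27 to 12.2 in the ABpIF/+ and 3.21 to 6.81 in the Ctrl mice, and adipocyte and muscle genes to 0.665, 0.536 and 0.587 CPM in BG38, BG90 and BG183, against 0.58 to 1.77 in the ABpIF/+ and 0.417 to 1.06 in the Ctrl mice. Of the members of these 3 lists 0 were called by edgeR (4 at an unadjusted p under 0.05, and 2 called by DESeq2). Of 7 exocrine pancreas genes 1 rose, *Cela1*, and the pancreatic *Pnlip* was at 0 in the 3 ABpIF/F mice. Of 15 ATF4 and serine synthesis genes 0 were called by edgeR (5 at an unadjusted p under 0.05, and 1 called by DESeq2), and of 13 growth hormone axis genes 1 was, *Cux2*.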

How the data were processed

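RNA from livers of 15 female mice was examined, of which 3 ABpIF/F and 6 ABpIF/+ mice form the comparison. RNA from frozen liver, extracted in Trizol, went into stranded mRNA libraries for paired-end sequencing. The deposited values are raw read counts per gene, which the authors made by trimming, aligning with HISAT2 to mm10 and counting with featureCounts 2.0.8; the processing notes write the HISAT2 version as 2.21, and the gene annotation and strand setting of the counting are not given in the sources used here. The tables hold 1 column per mouse although 23 samples are listed, since some mice are named by 2 samples, so runs of 1 mouse were not told apart. A second deposited table holds the same counts for 27171 of the 27179 genes in the 10 columns compared; 5 of its count columns, headed by a bare number, were not used, nor were the authors' columns of fold changes and p-values, which were neither printed nor compared.

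The test was run with edgeR 4.0.16 under R 4.3.3. No gene was filtered out of the 27179, TMM gave the library scaling, and 1 quasi-likelihood model (legacy form, robust dispersions) was fitted to the 3 groups of 15 mice, with the contrast ABpIF/F minus ABpIF/+. Two-sided p-values were adjusted by Benjamini-Hochberg over all genes. Standard errors were computed as the absolute log2 fold change divided by the square root of the F statistic. Calls needed an adjusted p under 0.01 and a change of 2-fold or more, a log2 fold change of 1. Log2 CPM used a prior count of 2. The script was tested on simulated data.

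The members of the comparison and the 54 gene lists were chosen with earlier results of these data known, so lists are described by counts and medians without a test. Of 880 genes in the lists, Cyp2c44, G6pc, Hbb-bt and Ahsp were not matched. Named genes are *Icmt*, the 10 largest changes in each direction with at least 5 CPM in 1 group and no overlap between mice, up to 5 called members a list with at least 1 CPM, up to 3 abundant members a list that were not called, and *Braf*, *Trp53*, *Apoa1*, *Fgb* and *Afp*. A few genes that this rule names are not reported here. Members named only in a count of called genes or of promoter matches are outside that rule. Positions and promoter windows came from RefSeq on GRCm38.p6, which is mm10; 25275 genes matched by Entrez ID and 18458 had a window. Alternatives were RLE scaling, DESeq2 1.42.0, genes passing filterByExpr, the quasi-likelihood form of edgeR 4, the 9 mice alone, leaving out each mouse, a clock gene score as covariate, an absolute log2 fold change of 2, an adjusted p under 0.05, the second table and a prior count of 0.5. Proteomics, histology and survival were not analysed here.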

Additional observations from a re-analysis of the deposited data

Results flagged for a closer look

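In 149 sets of values from the 6 ABpIF/+ mice, 16 had 1 mouse further from the others than Dixon's 95% limit allows, where chance alone flags about 1 in 20. BG55 was the highest mouse for *Usp2* (71.8 CPM, the next 44.9), *Cyp2a5* (1050.4, the next 726), *Por* (1626, the next 1076), *Lpin1* (1221, the next 691) and the summed clock output genes (4727, the next 3608), and the lowest for *Ifit1* (4.79, the next 6.81). BG40 was the highest for *Fn1* (4517 CPM, the next 2627), *Fgb* (6149, the next 3983), the summed stellate cell and fibroblast genes (4658, the next 2878) and the summed interferon-gamma inducible GTPases (432, the next 308), and the lowest for *Pcna* (16.6, the next 26.3). BG30 was the highest for *Slfn4* (0.409 CPM, the next 0.155) and *Ifi27l2a* (0.853, the next 0.645). BG88 was the highest for *S100a9* (3.02 CPM, the next 1.44), and BG175 for *Scd1* (3321, the next 2160) and *Gclc* (107, the next 94.3). The causes were not tested. The 3 ABpIF/F mice are too few for this check.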

How the results depend on the processing

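RLE scaling, DESeq2, genes passing filterByExpr, the quasi-likelihood form of edgeR 4, the 9 mice alone, an adjusted p under 0.05 and the second table left the counts of higher and lower genes, and of called members in the 8 lists followed, within 1.5 times, and *Icmt* called. With the clock score in the model the counts were 131 higher and 187 lower genes, 7 antiviral effectors, 6 GTPases, 1 class II gene, 6 collagens, 3 stellate cell and fibroblast genes, 1 proliferation gene, 0 clock output genes and 3 periportal genes, and *Icmt*, at a log2 fold change of -0.97, missed the fold threshold; *Ppara* turned from lower to a log2 fold change of 0.0081 (adjusted p = 1). Over the 1491 higher genes the median log2 fold change was 2.03 without and 1.92 with the score, and the median SE 0.36 and 0.66. The score was built from clock genes, so it takes their own differences by construction, and its slope leans most on the Ctrl mouse malpa387. At an absolute log2 fold change of 2, 761 genes were higher and 94 lower, with 10 GTPases, 11 stellate cell and fibroblast, 6 proliferation and 3 periportal genes, and *Icmt* at -1.04 was not called. Without 1 mouse at a time the counts ranged from 788 (without BG38) to 1571 higher genes, from 367 to 543 lower genes, from 7 (without BG38) to 13 class II genes, from 7 (without BG90) to 11 proliferation genes, from 24 to 28 effectors, from 13 to 16 GTPases, from 12 to 16 collagens, from 15 to 20 stellate cell and fibroblast genes, from 6 to 9 clock output genes and from 6 to 7 periportal genes, and the log2 fold change of *Icmt* from -1.087 to -1.002. Of the 102 called genes named in the text, 25 were not called without BG38 and 7 without BG90. No paired analysis was possible because each mouse belongs to 1 group and the count columns carry no replicate number. With 3 ABpIF/F mice, calls of genes at few CPM rest on few reads.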
